A study of Homo sapiens with 60 samples.

Results

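The 9 genes KLF2, KLF4, KLF5, KLF6, KLF9, KLF10, KLF11, KLF13 and KLF15 belong to the Krüppel-like factor (KLF) family of transcription factors, and their mRNA levels were followed in HepG2 cells over vehicle and 8 herbal extracts at 3 doses each. They were chosen by name: a row of the deposited count table was taken when its Ensembl identifier mapped to one of these symbols, which gave 9 of 60675 identifiers. Of the 9, 8 passed the filter on low counts and were tested among 16924 genes. KLF2, with a mean of 7.5 counts per library, did not pass it and is described by its levels alone.

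HepG2 is an established human hepatocellular carcinoma line, and each culture was exposed for 24 h before RNA sequencing of the bulk cells. The vehicle group (DMSO, 0.1% in the sample protocols and 2% in the series' design text) had 3 libraries. No DMSO content is recorded here for the treated cultures, so a difference in solvent cannot be told apart from treatment in comparisons with vehicle. Hot-water extracts of 2 decoctions, Yijin-tang (yijin) and Soshiho-tang (soshiho), and ethanol extracts (70%) of 6 single herbs were given: Liriopis seu Ophiopogonis Tuber (liriope), Schisandrae Fructus (schisandra), Longan Arillus (longan), Zizyphi Semen (zizyphus), Polygalae Radix (polygala) and Aucklandiae Radix (aucklandia). The low, medium and high doses were 20, 100 and 500 µg/mL, except 10, 50 and 250 µg/mL for polygala and 11.2, 56 and 280 µg/mL for aucklandia; the series' design text says that an extract with an IC20 under 500 µg/mL was used at its IC20 and at dilutions of it. Each replicated group had 3 libraries, except soshiho with 2 (numbered 2 and 3), while polygala and aucklandia had 1 library per dose and so no replicate check. Nothing in the sources states whether the replicates of a group were grown apart, and p-values here measure the spread between these libraries, which may be technical. A wortmannin positive control named in the design is not analysed here.

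The 60 libraries held 20.7 to 38.0 M counts each. All 8 hepatocyte and HepG2 markers examined, among them ALB, AFP and HNF4A, were detected, and their summed level was 36600 to 50000 CPM (counts per M library counts) in the 54 replicated libraries. Of 5 endothelial markers, KDR and TEK had a median of 0 CPM, CDH5 and VWF of 0.401 and 0.701 CPM and PECAM1 of 4.09 CPM in those libraries, and their summed level was 4.04 to 6.24 CPM. Vehicle carries a sample code that no treated library shares, so in every comparison with vehicle the treatment and the code cannot be told apart, and all 6 such comparisons rest on the same 3 vehicle libraries. For that reason the high dose is first compared with the low dose of the same extract. In bulk RNA, fewer cells that express a gene and less of its RNA per cell cannot be told apart.

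As background, KLF proteins bind GC boxes and CACCC elements through zinc fingers at their carboxyl end and differ in the partners their amino-terminal parts recruit. KLF2, KLF4, KLF5 and KLF6 are mostly known as activators that work with histone acetyltransferases, KLF9, KLF10, KLF11 and KLF13 as factors that can bind the corepressor SIN3A, and KLF15 as a regulator of amino acid and glucose metabolism in liver and muscle. Several are early or hormone-responsive genes: KLF10 and KLF11 respond to TGF-beta, KLF9 and KLF15 to glucocorticoids, and KLF2 and KLF4 to the kinase ERK5 and its MEF2 partners in endothelium.

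Upstream sequences are shown for KLF2, KLF4, KLF5, KLF6 and KLF11, which are part of the members that stood high at the high dose of aucklandia. KLF15, which was low in the same library, is shown as well. Other members that stood high there are not shown, so the stretches do not cover all raised members. The stretches come from the RefSeq table (build GRCh38.p14), run 5′ to 3′ on the gene's strand within the 250 bases before an annotated start, and leave out bases that GENCODE 29 places in an exon of the gene. Capitals mark the GC box (GGGCGG), the CACCC box (CACCC), the MEF2 site (CTA and TAG with any 4 bases between them), the cyclic AMP response element (TGACGTCA) and the AP-1 site (TGACTCA), each searched on both strands. KLF2 lies at chr19:16324576-16324816, plus strand; KLF4 at chr9:107489770-107490019, minus strand; KLF5 at chr13:73054726-73054975, plus strand; KLF6 at chr10:3785282-3785459, minus strand; KLF11 at chr2:10043971-10044174, plus strand; and KLF15 at chr3:126357443-126357658, minus strand.
KLF2: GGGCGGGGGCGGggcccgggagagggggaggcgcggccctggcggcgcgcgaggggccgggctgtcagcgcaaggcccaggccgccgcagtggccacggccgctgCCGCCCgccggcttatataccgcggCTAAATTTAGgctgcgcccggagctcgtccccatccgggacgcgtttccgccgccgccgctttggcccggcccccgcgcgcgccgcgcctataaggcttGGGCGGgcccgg
KLF4: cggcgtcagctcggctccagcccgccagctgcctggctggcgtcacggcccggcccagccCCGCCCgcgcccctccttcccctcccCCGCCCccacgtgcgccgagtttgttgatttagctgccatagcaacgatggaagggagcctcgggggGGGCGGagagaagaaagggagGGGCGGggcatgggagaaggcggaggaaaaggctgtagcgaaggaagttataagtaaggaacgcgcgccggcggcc
KLF5: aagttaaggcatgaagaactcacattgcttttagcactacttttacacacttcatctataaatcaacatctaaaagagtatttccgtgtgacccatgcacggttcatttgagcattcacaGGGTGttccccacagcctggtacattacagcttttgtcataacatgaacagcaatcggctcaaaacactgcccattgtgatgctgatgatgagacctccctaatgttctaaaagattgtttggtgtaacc
KLF6: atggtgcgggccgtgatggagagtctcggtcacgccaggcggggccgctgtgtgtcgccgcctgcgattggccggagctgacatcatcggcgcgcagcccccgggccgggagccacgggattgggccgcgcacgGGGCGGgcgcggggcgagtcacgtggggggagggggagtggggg
KLF11: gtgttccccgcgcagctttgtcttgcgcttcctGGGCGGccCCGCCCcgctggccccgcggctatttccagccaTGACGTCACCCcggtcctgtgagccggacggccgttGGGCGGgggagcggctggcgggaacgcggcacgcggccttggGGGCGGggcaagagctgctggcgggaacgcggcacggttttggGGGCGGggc
KLF15: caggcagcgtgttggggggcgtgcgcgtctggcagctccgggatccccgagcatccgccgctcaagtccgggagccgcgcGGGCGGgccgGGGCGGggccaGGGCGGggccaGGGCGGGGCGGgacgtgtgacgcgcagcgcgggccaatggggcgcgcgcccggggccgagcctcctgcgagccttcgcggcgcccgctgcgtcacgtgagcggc
The GC box was present in 5 of the 6 stretches, KLF15 included. Of all 35116 RefSeq windows, 42.6% held it in the full 250 bases before the start, exon bases included. The stretches were 178 (KLF6) to 250 bases (KLF4 and KLF5) long, so this share and those below are not at equal length. The windows of the 5 genes held 69.0 to 80.7% G and C and that of KLF5 40.7%, for which the shares were not matched. The KLF5 stretch held no GC box and had 1 CACCC match, while the window of the other annotated KLF5 start held 2 GC boxes. Of the members not shown, the KLF13 window held 3 GC boxes and the KLF9 window 0, and no window is reported for the remaining member. KLF2 held a MEF2 match whose first base is at position -120 from its start, a motif found in 2.4% of windows. The KLF11 window also held a MEF2 match, at position -18, outside the stretch shown. KLF11 held a cyclic AMP response element whose first base is at position -176 and which overlapped its CACCC match. Of all windows 1.6% held that element and 54.7% held CACCC. The window of the other annotated KLF11 start held neither of them. None of the 6 stretches held an AP-1 match, against 4.2% of windows. These are letter matches, which do not show that a factor binds there.

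Levels between genes were compared per kilobase of summed exon length in the vehicle libraries. KLF6 was highest at 12.5 to 13.5 CPM per kb, followed by KLF13 at 7.16 to 7.37, KLF10 at 5.92 to 6.91, KLF9 at 3.92 to 4.35 and KLF15 at 3.12 to 3.38 CPM per kb, none of which overlapped its neighbour. KLF11 (1.47 to 1.77 CPM per kb) and KLF5 (1.29 to 1.53) overlapped. KLF2 (0.0905 to 0.123) and KLF4 (0.0791 to 0.112) also overlapped and rested on 4 to 9 counts per library. This order covers the 9 members only. KLF2 and KLF4 were near the limit of what this depth can measure.

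**Figure D1:**
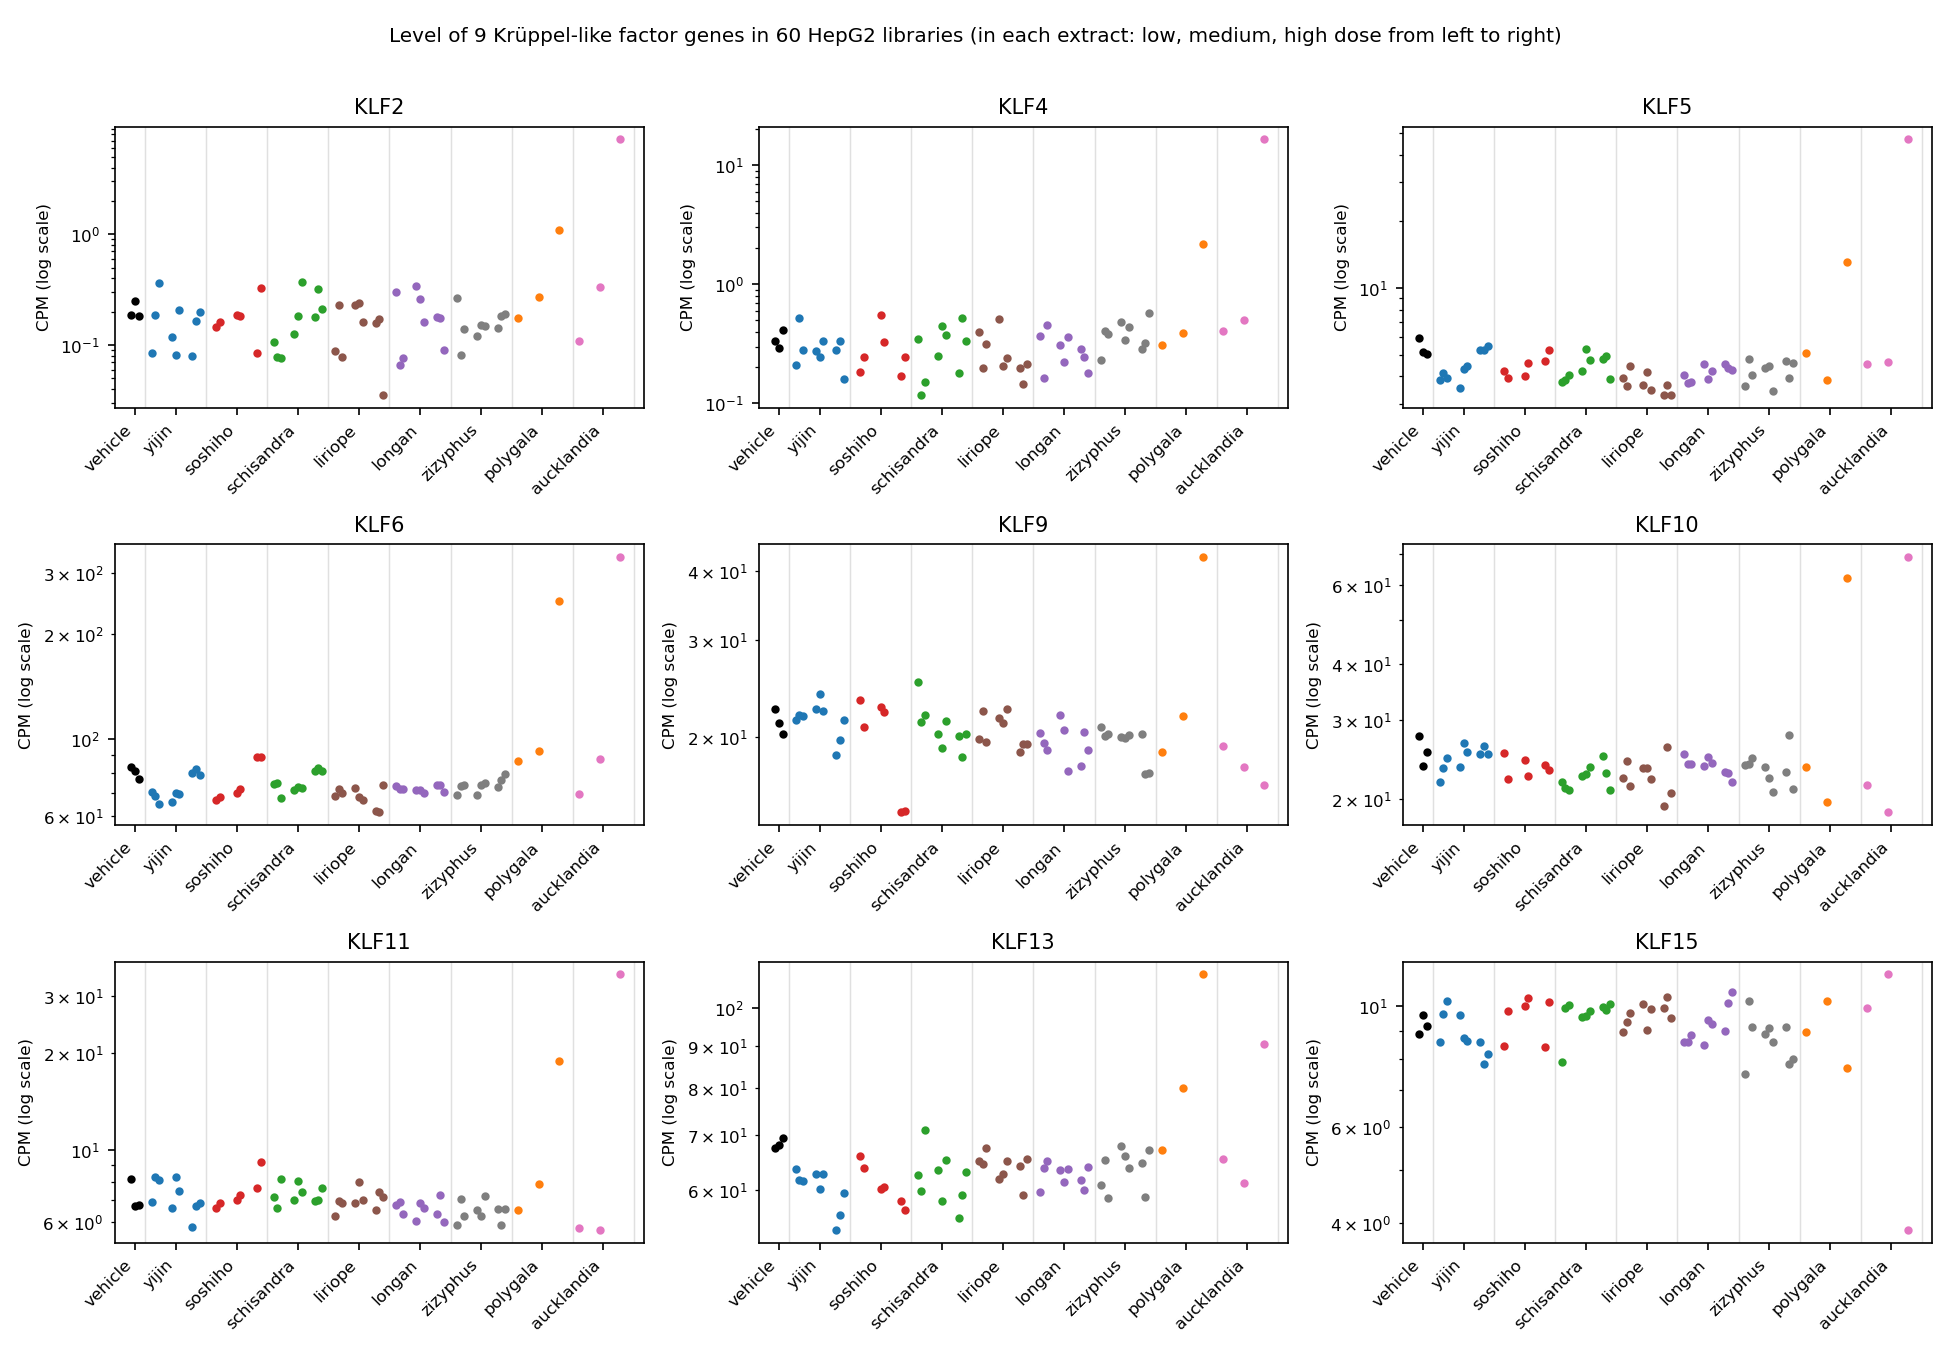
CPM of each member in the 60 libraries on log axes whose ranges differ between panels, 1 point per library, grouped by extract with the low, medium and high dose from left to right. KLF6 stayed between 61.4 and 88.8 CPM in the 54 replicated libraries, and the high-dose polygala and aucklandia libraries stood at 248 and 333 CPM.

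KLF6, a zinc finger factor that can restrain growth and is induced in injured liver cells (ENSG00000067082, chromosome 10, 3775996 to 3785281, minus strand), rose from the low to the high dose in yijin, soshiho and schisandra. In yijin its level was 70.4, 68.5 and 65.2 CPM at the low dose, 65.8, 69.8 and 69.3 CPM at the medium dose and 79.8, 81.8 and 78.5 CPM at the high dose. All 3 high-dose libraries lay above all 3 low-dose libraries, as was so in one direction or the other for 27.7% of the tested genes. The log2 change was 0.23 (SE 0.05, edgeR adjusted p = 0.000816). Soshiho libraries held 66.5 and 67.8 CPM of KLF6 at the low dose, 69.7 and 71.8 CPM at the medium dose and 88.7 and 88.8 CPM at the high dose, again without overlap between low and high (50.8% of tested genes, with 2 libraries a group). Here the log2 change was 0.40 (SE 0.06, edgeR adjusted p = 3.71e-06), or 1.32-fold. In schisandra KLF6 stood at 74.3, 74.5 and 67.5 CPM at the low dose and at 80.8, 82.3 and 80.9 CPM at the high dose, without overlap (18.7% of tested genes). This was the smallest of the 3 changes, at a log2 value of 0.18 (SE 0.05, edgeR adjusted p = 0.0123), and it lost its call without schisandra low replicate 3 (adjusted p = 0.0818), without high replicate 2 (0.0547), with the library size as scaling (0.105), without a filter on low counts (0.149) and when only schisandra and vehicle libraries were fitted (0.0935). At the medium dose schisandra libraries held 71.3, 72.6 and 72.3 CPM of KLF6. The mitochondrial share of counts moved as well, from 10.6, 11.7 and 11.6% at the low dose to 12.7, 11.9 and 11.5% at the high dose of yijin, from 11.2 and 11.4% to 12.3 and 13.7% in soshiho and from 10.4, 10.2 and 10.4% to 13.8, 12.5 and 11.2% in schisandra. Its part in the KLF6 changes was not tested.

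In liriope KLF6 went the other way in level but not past the test. Its libraries held 68.3, 71.6 and 69.9 CPM at the low dose and 62.0, 61.4 and 73.6 CPM at the high dose. There replicate 3 stood apart from the other 2 in KLF6 and overlapped the low dose. Over all genes, replicate 2 was the high-dose liriope library farthest from its replicates, with 15.9% mitochondrial counts. Replicates 1 and 3 had 10.8% and 11.3%, and the low-dose libraries 10.9, 10.7 and 11.1%. The part of this in the KLF6 values was not tested. The difference between the high vs low changes of schisandra and liriope was 0.27 on the log2 scale (SE 0.07, edgeR adjusted p = 0.0123). It lost its call without liriope high replicate 2 (0.219, adjusted p = 0.0654), without a filter on low counts (adjusted p = 0.102) and without the 2 libraries that stood farthest from their replicates, schisandra low replicate 1 and liriope high replicate 2 (adjusted p = 0.0651). Longan and zizyphus held 70.5 to 73.5 CPM and 72.5 to 79.3 CPM of KLF6 at the high dose, and neither changed past the test from its low dose.

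KLF5, an activator of growth and epithelial genes (ENSG00000102554, chromosome 13, 73054976 to 73077542, plus strand), rose with dose in yijin. Its level was 3.84, 4.16 and 3.94 CPM at the low dose, 3.52, 4.30 and 4.46 CPM at the medium dose and 5.23, 5.26 and 5.47 CPM at the high dose. High and low did not overlap (27.7% of tested genes), and the log2 change was 0.41 (SE 0.11, edgeR adjusted p = 0.0127), or 1.33-fold. The call was lost without yijin high replicate 3 (adjusted p = 0.0522), without low replicate 1 (0.0557) and without a filter on low counts (0.0694). In the other 5 replicated extracts the high-dose means of KLF5 ran from 3.41 CPM in liriope to 4.98 CPM in soshiho, and no high vs low change passed the test. Soshiho stood at 4.24 and 3.95 CPM at the low dose against 4.68 and 5.27 CPM at the high dose.

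KLF4, a factor of epithelial differentiation and reprogramming (ENSG00000136826, chromosome 9, 107484852 to 107490482, minus strand), and KLF2, a factor of endothelial and T cell quiescence (ENSG00000127528, chromosome 19, 16324817 to 16327874, plus strand), gave few counts. Over the 54 replicated libraries KLF4 lay between 0.117 and 0.577 CPM and KLF2 between 0.0354 and 0.371 CPM. The high vs low log2 changes of KLF4 ran from -0.68 in liriope to 0.65 in schisandra, none past the test (smallest edgeR adjusted p = 0.443). A change of that size was not detectable at this depth.

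KLF9, a factor induced by glucocorticoids and thyroid hormone (ENSG00000119138, chromosome 9, 70384597 to 70414624, minus strand), fell with dose in soshiho. Libraries held 23.4 and 20.9 CPM at the low dose, 22.7 and 22.2 CPM at the medium dose and 14.6 and 14.7 CPM at the high dose. Both high-dose libraries lay below both low-dose libraries, in a comparison where 50.8% of tested genes did not overlap. The log2 change of KLF9 against the low dose was -0.60 (SE 0.09, edgeR adjusted p = 5.02e-06), or 0.658-fold. The schisandra libraries held 25.2, 21.3 and 21.9 CPM of KLF9 at the low dose and 20.1, 18.4 and 20.2 CPM at the high dose. That log2 change was -0.22 (SE 0.07, edgeR adjusted p = 0.0458). It lost its call without low replicate 1, the highest of the 6 (-0.14, adjusted p = 0.421), without high replicate 1 (0.0731), 2 (0.214) or 3 (0.0695), without a filter on low counts (0.0557), without the 2 libraries farthest from their replicates (0.397), and when only schisandra and vehicle were fitted (0.2). Yijin held 21.4, 21.9 and 21.8 CPM at the low dose and 18.5, 19.8 and 21.4 CPM at the high dose, which did not pass the test.

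The fall of KLF9 was larger in soshiho than in yijin by -0.47 on the log2 scale (SE 0.11, edgeR adjusted p = 0.026). This difference lost its call without any 1 of 6 of the 10 libraries it rests on: soshiho high replicate 2 (adjusted p = 0.154) or 3 (0.122), soshiho low replicate 2 (0.286), yijin high replicate 3 (0.0972), and yijin low replicates 1 (0.0596) and 3 (0.0507). Where 1 soshiho library of a dose was left out, the fit takes the lone library to vary like the other groups. Against schisandra the difference of KLF9 was -0.38 (SE 0.11, edgeR adjusted p = 0.0919), which passed the test only without schisandra low replicate 1 (-0.46, adjusted p = 0.0264) or without it and liriope high replicate 2 (adjusted p = 0.0256).

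KLF10 and KLF11 are early TGF-beta genes that encode repressors, and KLF13 is a widely expressed repressor and activator known from T cells. KLF10 (ENSG00000155090, chromosome 8, 102648779 to 102655902, minus strand) held 23.7 to 27.6 CPM in vehicle and changed by -0.11 to 0.13 on the log2 scale from low to high over the 6 extracts, none past the test. KLF11 (ENSG00000172059, chromosome 2, 10042849 to 10054836, plus strand) was 6.92, 8.28 and 8.09 CPM at the low and 5.79, 6.75 and 6.86 CPM at the high dose of yijin, and 6.66 and 6.87 CPM at the low and 7.67 and 9.20 CPM at the high dose of soshiho. Neither passed the test on all libraries; in yijin the log2 change was -0.27 (edgeR adjusted p = 0.0896, and 0.0433 without yijin low replicate 1). Between soshiho and yijin the KLF11 changes differed by 0.58 on the log2 scale (95% interval 0.28 to 0.89, edgeR adjusted p = 0.0529), with a call without yijin low replicate 1 (0.0274), without soshiho high replicate 2 (0.042), with the library size as scaling (0.0491), with the replicate number as a block (0.0325) and without the 2 libraries farthest from their replicates (0.0381).

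KLF13 (ENSG00000169926, chromosome 15, 31326855 to 31435665, plus strand) was 63.6, 61.6 and 61.5 CPM at the low dose and 53.5, 55.8 and 59.5 CPM at the high dose of yijin, and 66.0 and 63.7 CPM against 58.0 and 56.6 CPM in soshiho. High lay below low without overlap in both extracts, where 27.7% and 50.8% of tested genes did not overlap. Neither change passed the test over all groups (log2 -0.15, edgeR adjusted p = 0.0915, and -0.18, adjusted p = 0.126). Each passed when only that extract and vehicle were fitted (adjusted p = 0.0353 and 0.0401). KLF15, which raises enzymes of amino acid breakdown and gluconeogenesis (ENSG00000163884, chromosome 3, 126342635 to 126357442, minus strand), lay between 7.49 and 10.6 CPM in all 54 replicated libraries, with high vs low log2 changes of -0.22 to 0.19, none past the test.

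Counted over the 8 tested members, 2 were called between high and low dose in yijin (KLF5 and KLF6, against 7.79% of all tested genes), 2 in soshiho (KLF6 and KLF9, against 5.08%) and 2 in schisandra (KLF6 and KLF9, against 7.33%). None was called in liriope, longan or zizyphus by edgeR or by DESeq2, where 0.0295%, 0.0177% and 0.0355% of all genes were called and 0, 1 and 1 members had an unadjusted p under 0.05. From low to medium dose no member was called in any of the 6 extracts by edgeR or DESeq2, beside 0.00591% of all genes in yijin, 0.118% in soshiho, 0.0709% in schisandra, 0% in liriope and longan and 0.00591% in zizyphus; 2 members in schisandra and 0 elsewhere had an unadjusted p under 0.05. The median member changed from low to high by a log2 value of -0.14 in yijin, 0.00 in soshiho and 0.12 in schisandra, against medians within 0.01 of 0 over all genes. For the differences between extracts, 1 member was called for soshiho minus yijin (0.88% of all genes) and 1 for schisandra minus liriope (4.11%). No member was called for schisandra minus yijin (0.957%), soshiho minus schisandra (1.26%) or zizyphus minus longan (0.00591%), by edgeR or DESeq2, with unadjusted p under 0.05 for 1, 3 and 1 members.

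**Figure D2:**
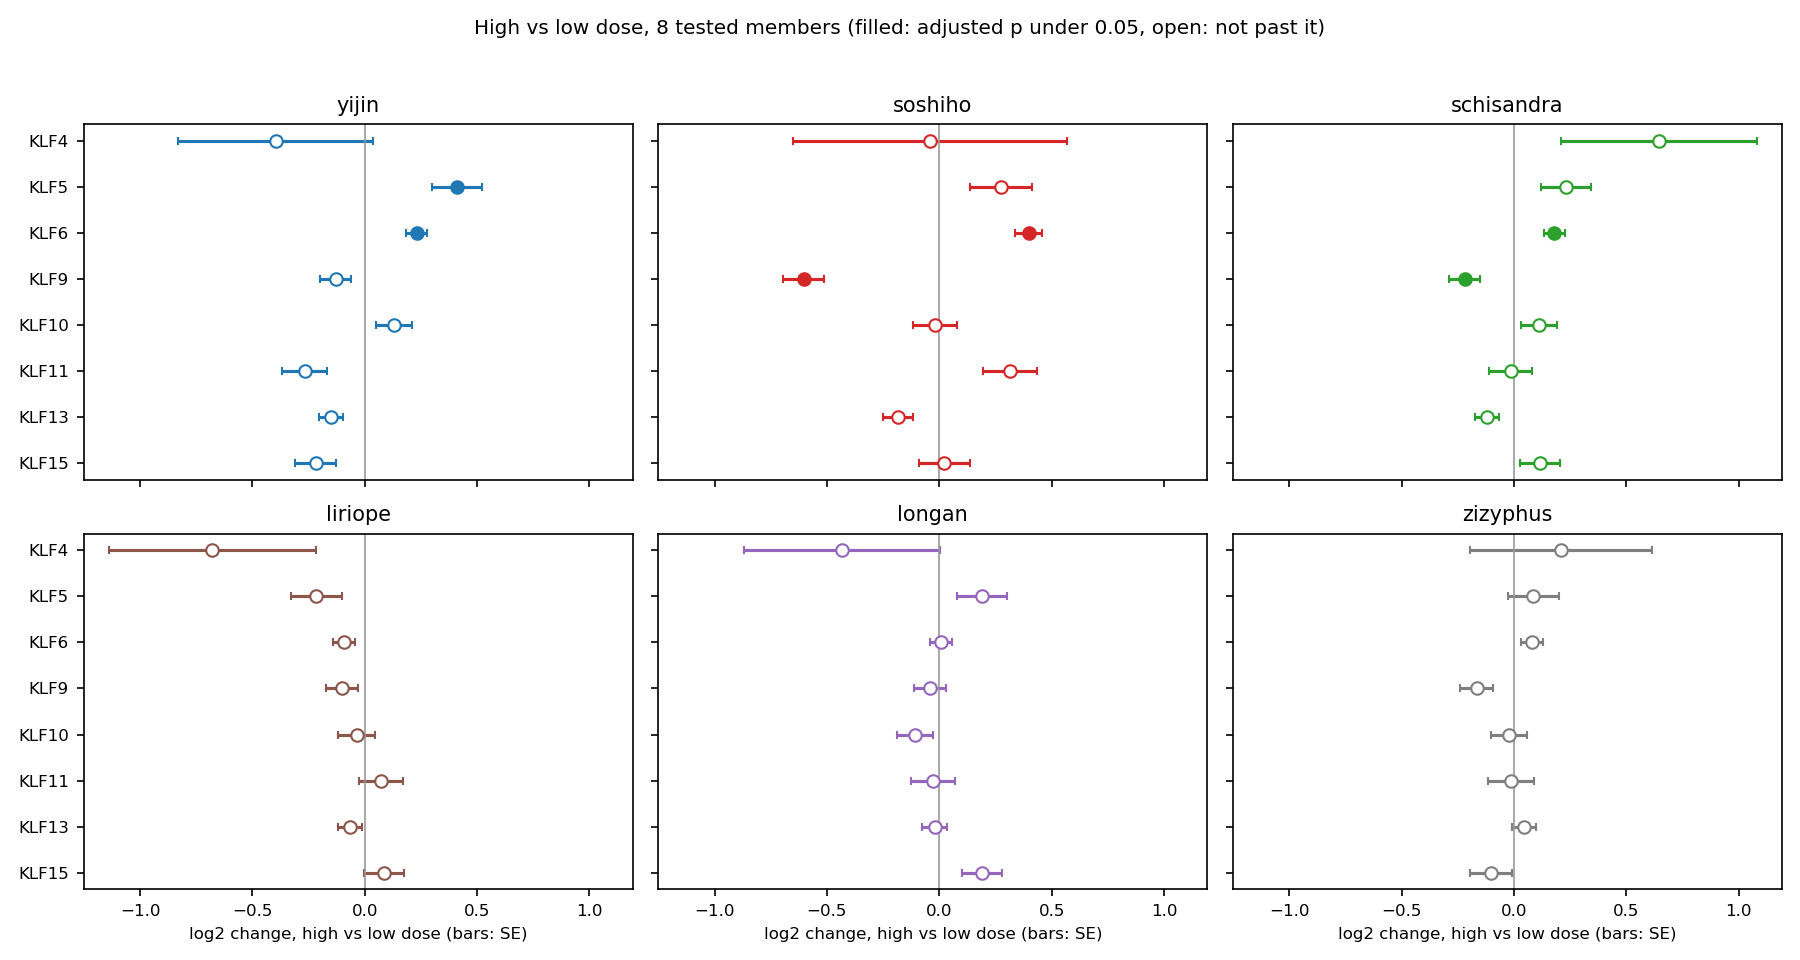
log2 change from the low to the high dose of 8 members in the 6 replicated extracts, with bars of 1 SE and filled points where the edgeR adjusted p is under 0.05. KLF6 is filled on the right in yijin (0.23), soshiho (0.40) and schisandra (0.18), KLF5 on the right in yijin (0.41), and KLF9 on the left in soshiho (-0.60) and schisandra (-0.22).

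Against vehicle the low doses already differed. KLF5 stood at 5.96, 5.13 and 5.02 CPM in vehicle and at 3.61 to 4.81 CPM in the 17 low-dose libraries. Its log2 change was -0.48 to -0.37 over the 6 extracts (edgeR adjusted p = 0.00142 to 0.0341). KLF6 stood at 83.1, 80.8 and 76.6 CPM in vehicle and at 65.2 to 74.5 CPM at the low doses, with log2 changes of -0.25 to -0.15 (edgeR adjusted p = 0.000685 to 0.0227). KLF5 and KLF6 were thus the 2 members called lower in all 6 extracts at the low dose, where the share of all genes called lower was 8.12% in yijin, 6.45% in soshiho, 11% in schisandra, 8.96% in liriope, 10.4% in longan and 8.76% in zizyphus. Vehicle also stood apart in its share of mitochondrial counts, at 18.4, 15.2 and 15.2% against 10.2 to 11.7% in the low-dose libraries, and in its TMM factor, at 0.894 to 0.932 against 0.99 to 1.02; the part of this in the calls was not tested. KLF10 was called as well in schisandra (21.9, 21.2 and 20.9 CPM against 27.6, 23.7 and 25.4 CPM in vehicle, log2 -0.27, edgeR adjusted p = 0.0144). KLF13 was not called at any low dose. Its change in zizyphus (log2 -0.145, edgeR adjusted p = 0.0606) was called by DESeq2 (0.0416) and with the replicate number as a block (0.0422). It was also called without zizyphus low replicate 2 (0.0261) and without the 2 libraries farthest from their replicates (0.0408).

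The calls against vehicle leaned on the scaling. With the library size alone as scaling, the median gene stood 0.13 to 0.15 higher in the low-dose groups than in vehicle on the log2 scale, and KLF6 was no longer called in any of the 6 extracts (adjusted p = 0.135 to 0.874), KLF5 no longer in soshiho (0.123) or zizyphus (0.0978), and KLF10 no longer in schisandra (0.141). The KLF6 changes shrank with that scaling to -0.127 to -0.014 on the log2 scale, smallest in longan (-0.147 before), schisandra (-0.154 to -0.024) and zizyphus (-0.155 to -0.028), and the KLF5 changes in soshiho and zizyphus to -0.263 and -0.239. Calls against vehicle were also gained with it. KLF9 at the low dose of schisandra went from 0.100 (edgeR adjusted p = 0.339) to 0.231 (0.0103). KLF11 at the high dose of soshiho went from 0.223 (edgeR adjusted p = 0.143) to 0.317 (0.0199). Without vehicle replicate 1, the highest of the 3 for both genes, the KLF6 calls in schisandra (adjusted p = 0.0872), longan (0.117) and zizyphus (0.109) ended, as did the KLF5 calls in yijin (0.0701), soshiho (0.163), liriope (0.0623) and zizyphus (0.139) and the KLF10 call (0.111). Further calls of KLF6 ended without schisandra low replicate 3 (0.115), zizyphus low replicate 1 (0.13), vehicle replicate 2 in longan (0.0519) and longan low replicate 1 (0.0518), 2 (0.0648) or 3 (0.0562). Those of KLF5 ended without soshiho low replicate 2 (0.104) or 3 (0.253) and zizyphus low replicate 1 (0.141) or 3 (0.0546). Without a filter on low counts, KLF6 was not called in schisandra (0.181), longan (0.21) or zizyphus (0.138), nor KLF5 in soshiho (0.169) or zizyphus (0.104). With only an extract and vehicle fitted, KLF6 lost its call in liriope (0.0815), schisandra (0.058) and zizyphus (0.0663) and KLF5 in soshiho (0.0536) and zizyphus (0.0877), and DESeq2 did not call KLF5 in soshiho (0.0634).

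At the high dose the members stood apart by extract in their distance from vehicle. KLF6 in yijin (79.8, 81.8 and 78.5 CPM) and schisandra (80.8, 82.3 and 80.9 CPM) overlapped the vehicle range of 76.6 to 83.1 CPM, and in soshiho (88.7 and 88.8 CPM) it lay above it (log2 0.15, edgeR adjusted p = 0.0411). The soshiho call ended without soshiho high replicate 2 (0.186) or 3 (0.178), without vehicle replicate 2 (0.069) or 3 (0.177), without a filter on low counts (0.217) and with the replicate number as a block (0.0514). In liriope KLF6 and KLF5 stayed below vehicle, at log2 changes of -0.28 (edgeR adjusted p = 4.57e-05) and -0.65 (edgeR adjusted p = 6.49e-05), with KLF5 at 3.30, 3.64 and 3.29 CPM. Longan KLF6 was also lower (73.5, 73.5 and 70.5 CPM, log2 -0.14, edgeR adjusted p = 0.0313), a call that ended with library size as scaling (0.826), without a filter on low counts (0.216) and without longan high replicate 1 (0.0596), 2 (0.0531) or 3 (0.117) or vehicle replicate 1 (0.147) or 2 (0.068).

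KLF9 at the high dose was below vehicle in soshiho (14.6 and 14.7 CPM against 22.5, 21.2 and 20.3 CPM, log2 -0.54, edgeR adjusted p = 3.33e-06) and in zizyphus (20.2, 17.1 and 17.2 CPM, log2 -0.23, edgeR adjusted p = 0.0253). The zizyphus call ended without vehicle replicate 1 (0.146), zizyphus high replicate 2 (0.122) or 3 (0.123), with the library size as scaling (0.294), without a filter on low counts (0.0714) and with only zizyphus and vehicle fitted (0.0512). KLF13 held 67.4, 68.0 and 69.4 CPM in vehicle, and its log2 change from vehicle was -0.28 to -0.10 over the high doses of the 6 extracts. It passed the test in yijin (log2 -0.28, edgeR adjusted p = 0.000156), soshiho (-0.25, 0.00225) and schisandra (55.3, 59.1 and 63.0 CPM, log2 -0.20, 0.00536). The schisandra call ended without schisandra high replicate 1 (0.06), with the library size as scaling (0.21) and with only schisandra and vehicle fitted (0.0688), and the soshiho call with the library size as scaling (0.113). KLF13 in longan (log2 -0.138, edgeR adjusted p = 0.0702) was called by DESeq2 (0.0497) and with the replicate number as a block (0.0493). It was also called without the 2 libraries farthest from their replicates (0.0497) and with only longan and vehicle fitted (0.031). It stayed uncalled with any 1 library left out. KLF10 in liriope was 19.3, 26.1 and 20.6 CPM, and its log2 change of -0.21 (edgeR adjusted p = 0.0683) was called without liriope high replicate 2 (-0.36, 0.00101), without vehicle replicate 2 (0.0371), with the replicate number as a block (0.0448) and without the 2 libraries farthest from their replicates (0.0011).

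In all, the high dose differed from vehicle for 1 tested member in yijin (23.4% of all genes), 3 in soshiho (21.8%), 1 in schisandra (22.1%), 2 in liriope (16.8%), 1 in longan (19.6%) and 1 in zizyphus (16.9%). Counts of 1 to 3 of 8 members are close to those shares and so are no result about the members. With the library size alone as scaling, the median gene stood 0.098 to 0.126 above vehicle on the log2 scale in these 6 comparisons.

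**Figure D3:**
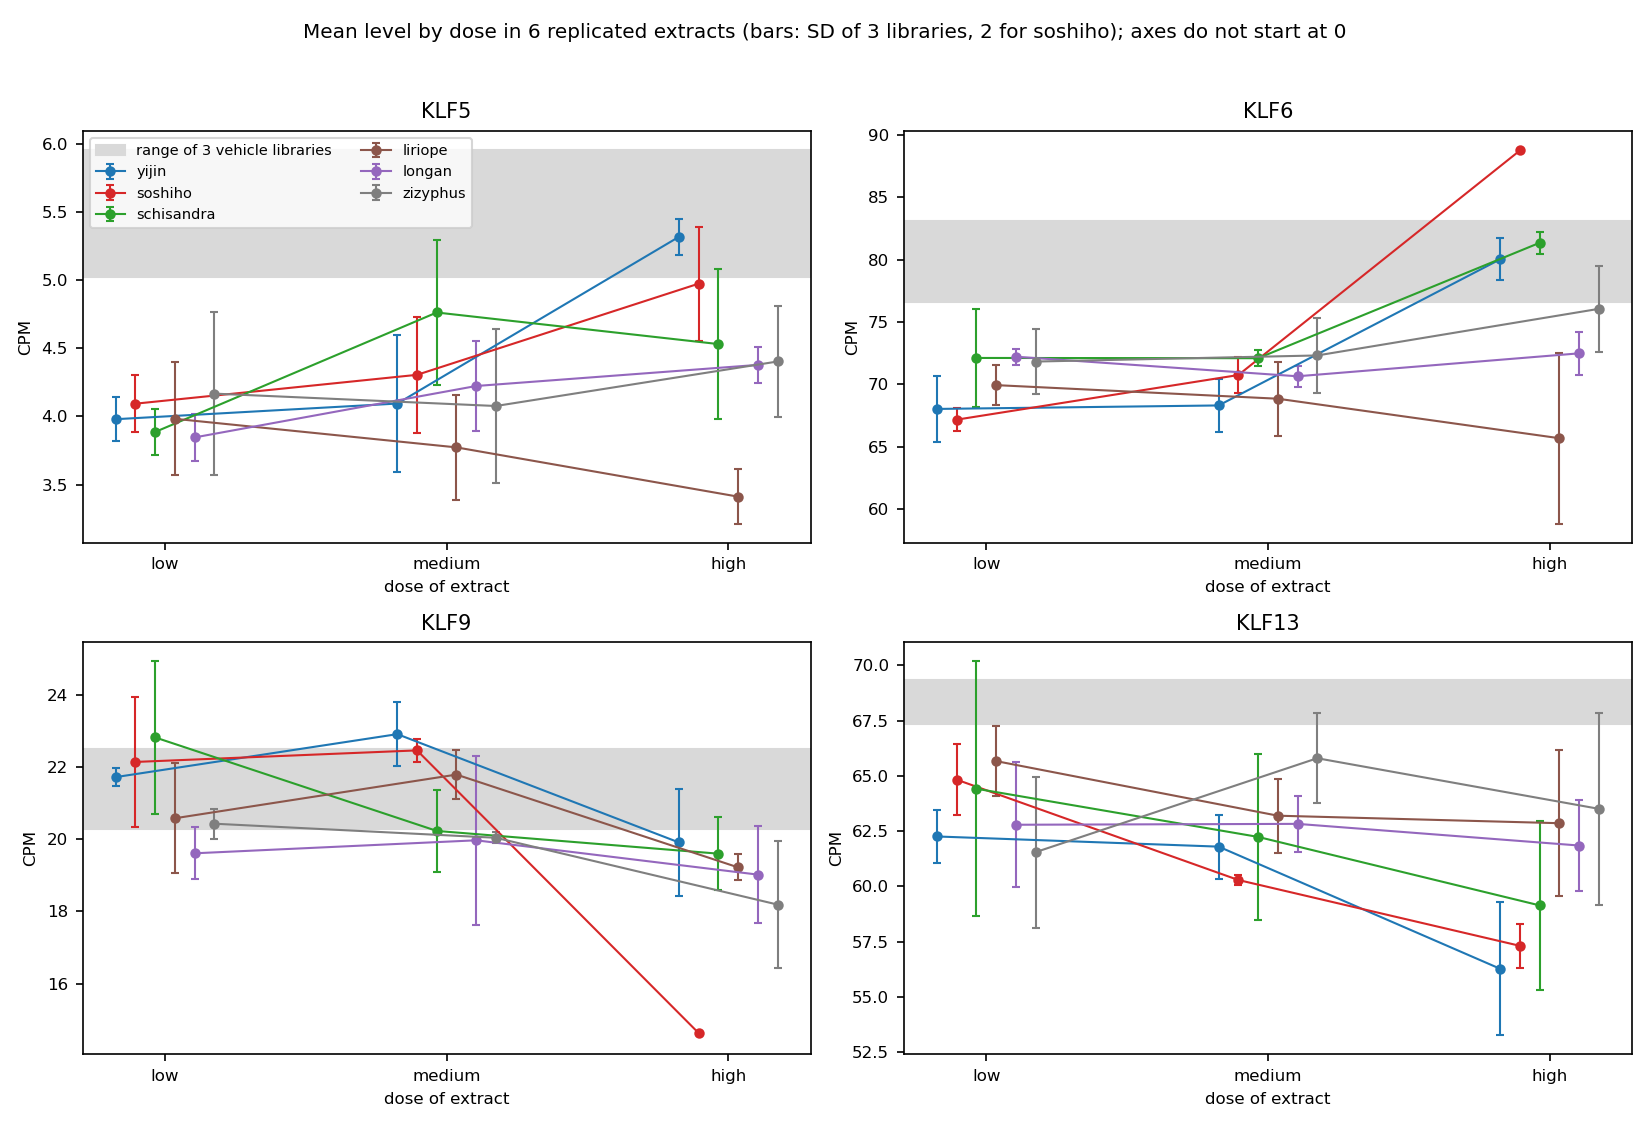
Mean CPM of KLF5, KLF6, KLF9 and KLF13 at the low, medium and high dose of the 6 replicated extracts, with bars of 1 SD over 3 libraries (2 for soshiho) and a grey band from the lowest to the highest vehicle library; the axes do not start at 0. KLF5 and KLF6 lie below the band at the low dose in all 6 extracts, and KLF9 in soshiho drops from 22.5 CPM at the medium dose to 14.6 CPM at the high dose.

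In aucklandia 7 members stood above their low-dose level at the high dose, and KLF9 and KLF15 stood below it. Aucklandia held KLF4 at 0.401, 0.497 and 16.5 CPM at the low, medium and high dose, from 11, 12 and 357 counts. The high over low CPM ratio was 41.1 (95% counting interval 22.7 to 83). KLF2 was counted 3, 8 and 156 times, or 0.109, 0.331 and 7.20 CPM, a ratio of 65.8 (22.1 to 322). KLF5 stood at 4.53, 4.64 and 47.0 CPM, a ratio of 10.4 (8.6 to 12.6). KLF2, KLF4 and KLF5 were thus near their usual level at the medium dose and far above it at the high dose, each in 1 library. KLF11 stood at 5.77, 5.67 and 35.0 CPM (ratio 6.08, 5.11 to 7.26), KLF6 at 69.4, 87.7 and 333 CPM (ratio 4.80, 4.57 to 5.06) and KLF10 at 21.5, 18.7 and 69.2 CPM (ratio 3.21, 2.92 to 3.54). KLF13 was 65.4, 61.1 and 90.4 CPM (ratio 1.38, 1.3 to 1.48). KLF9 was 19.2, 17.7 and 16.4 CPM, within the range of the 54 replicated libraries. KLF15 was lower, at 9.89, 11.4 and 3.88 CPM (ratio 0.392, 0.303 to 0.503), below its lowest replicated library at 7.49 CPM. The intervals are exact, cover counting error only and hold no spread between cultures.

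In polygala 8 members stood above their low-dose level at the high dose, and KLF15 stood below it. KLF6 stood at 86.1, 92.3 and 248 CPM (ratio 2.89, 2.74 to 3.04), KLF10 at 23.5, 19.7 and 62.1 CPM (2.64, 2.39 to 2.92), KLF11 at 6.52, 7.88 and 18.9 CPM (2.89, 2.40 to 3.51) and KLF5 at 5.08, 3.86 and 13.1 CPM (2.58, 2.08 to 3.23). KLF4 was counted 7, 10 and 52 times (ratio 7.07, 3.2 to 18.4) and KLF2 4, 7 and 26 times (ratio 6.19, 2.15 to 24.4). KLF9, which lay within the other libraries' range in aucklandia, stood at 18.8, 21.9 and 42.5 CPM here (ratio 2.26, 2.02 to 2.53), and KLF13 at 67.2, 79.9 and 110 CPM (1.64, 1.54 to 1.75). KLF15 held 8.97, 10.2 and 7.70 CPM, a ratio of 0.859 (0.70 to 1.05), and its sign turned with the library size as scaling. With 1 library per dose, and with 250 µg/mL of one extract and 280 µg/mL of the other, no difference between the 2 extracts was tested.

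With a change of at least 1.5-fold on log2(CPM + 1) taken as the mark, 6 of the 9 members were higher and 1 lower at the high than at the low dose of aucklandia, where 36.7% of all tested genes passed that mark (18.5% higher, 18.2% lower). In polygala 8 were higher and 0 lower, against 31.1% of all genes (14.4% higher, 16.7% lower). The median member moved by 2.25 on that scale in aucklandia and by 1.22 in polygala, against 0 and 0.0085 over all genes. Set against the range of the 54 replicated libraries, 7 members lay above it and 1 below it in the high-dose aucklandia library, and 8 above it in that of polygala. Of all tested genes 61.8% (31.3% above, 30.6% below) and 57.9% (29.5% above, 28.4% below) lay outside that range. With the library size as scaling, the median gene moved by 0.175 in polygala and by 0.036 in aucklandia, and the members' changes in polygala by a like amount, for example from 1.52 to 1.75 for KLF6.

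Other properties of these 2 libraries moved as well. The summed level of the 8 hepatocyte and HepG2 markers was 41400, 34400 and 19900 CPM at the low, medium and high dose of aucklandia and 43300, 35800 and 17800 CPM in polygala. In polygala 7 of the 8 were at least 1.5-fold lower, and in aucklandia 3 of 8, beside 16.7% and 18.2% of all tested genes. Endothelial markers, which matter because KLF2 and KLF4 are endothelial genes, summed to 6.79 CPM in the high-dose aucklandia library and 1.58 CPM in that of polygala; PECAM1 made up most of this, at 6.51 CPM in aucklandia, the highest of the 60 libraries, and 1.17 CPM in polygala. KDR was at 0 in both, TEK at 0.0462 and 0 CPM, CDH5 at 0.0462 and 0.0833 CPM and VWF at 0.185 and 0.333 CPM. The aucklandia sum lay above the range of the replicated libraries. Of the leukocyte markers, CD3E was at 0 and PTPRC at 0.0462 and 0 CPM, while CD68 was 71.1 and 14.2 CPM against a median of 38.2 CPM in the replicated libraries. Fibroblast and stellate markers summed to 40.6 and 16.4 CPM, below the 56.2 to 79.4 CPM of the replicated libraries, with ACTA2 at 18.6 and 9.28 CPM against a median of 55.5 CPM. PDGFRB went up in aucklandia, to 20.8 CPM against a median of 12.6 CPM, the highest of the 60 libraries, and stood at 6.58 CPM in polygala. COL1A1 was 1.06 and 0.541 CPM (median 0.802 CPM) and COL1A2 0.0462 and 0 CPM. These libraries held 20.7 and 21.0 M counts. The part of these shifts in the members' levels was not tested.

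**Figure D4:**
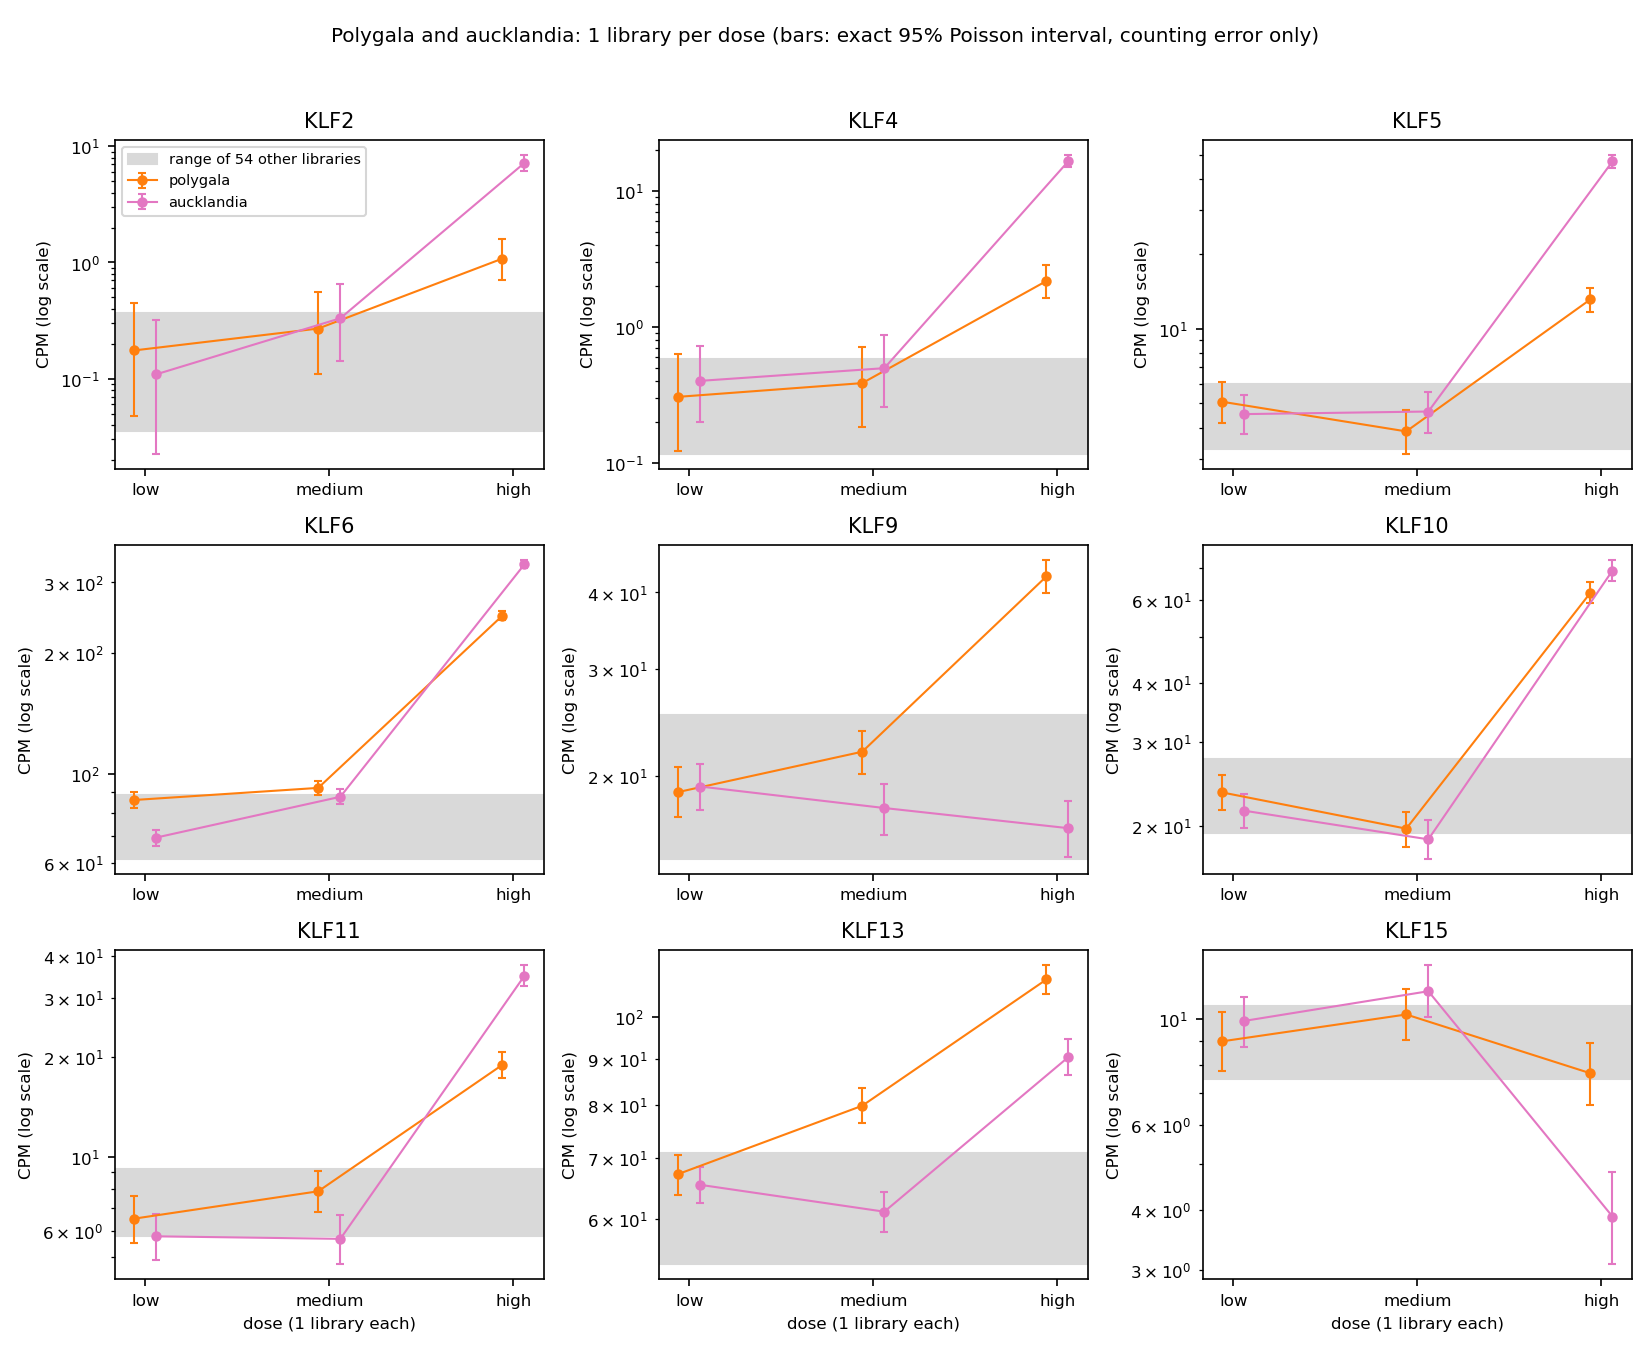
CPM of each member at the 3 doses of polygala and aucklandia on log axes, 1 library per point, with exact 95% Poisson intervals for counting error, and a grey band from the lowest to the highest of the 54 replicated libraries. At the high dose KLF2, KLF4, KLF5, KLF6, KLF10, KLF11 and KLF13 stand above the band in both extracts, KLF9 only in polygala (42.5 CPM), and KLF15 falls below it in aucklandia (3.88 CPM).

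Among 18 other KLF and SP genes, 10 were tested, and KLF3, a repressor that works through the corepressor CTBP, was the 1 called between high and low dose. It fell from 97.1 ± 2.49 to 88.1 ± 1.12 CPM in yijin (SD, n = 3, log2 -0.14, edgeR adjusted p = 0.0401), from 94.2 ± 0.868 to 81.8 ± 2.62 CPM in soshiho (SD, n = 2, log2 -0.21, edgeR adjusted p = 0.0155) and from 102 ± 7.18 to 88.7 ± 1.22 CPM in schisandra (SD, n = 3, log2 -0.20, edgeR adjusted p = 0.00349). None of the 14 tested corepressors and coactivators, among them SIN3A and EP300, and none of the 6 tested genes of the ERK5 and MEF2 axis was called between high and low dose by edgeR in any of the 6 extracts, nor by DESeq2. At an unadjusted edgeR p under 0.05 stood 3 of the corepressors and coactivators in yijin and 1 in schisandra, and 4 of the ERK5 and MEF2 genes in schisandra and 1 in zizyphus, with 0 of either list in the other extracts. Of 11 ubiquitin ligases and deubiquitinases that act on KLF proteins, only WWP1, which tags KLF2 and KLF5 for degradation, was called, in yijin (log2 0.18, edgeR adjusted p = 0.0227). Between high and low dose 7.79% of all tested genes were called in yijin, 5.08% in soshiho and 7.33% in schisandra. The lists' medians lay within 0.1 of 0 in all 6 extracts.

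Against vehicle, genes of these lists were called. At the high dose 3 to 6 of the 14 corepressors and coactivators and 2 to 5 of the 6 ERK5 and MEF2 genes were lower and 0 higher, beside the 16.8 to 23.4% of all genes called in either direction. The acetyltransferase genes EP300 (log2 -0.39 to -0.28, edgeR adjusted p = 0.000203 to 0.00486) and CREBBP (-0.53 to -0.42, 2.15e-06 to 5.23e-05) and the ERK5 partner MEF2A (-0.35 to -0.20, 0.00026 to 0.0307) were lower in all 6 extracts. SIN3A was lower in all but liriope (-0.13, edgeR adjusted p = 0.0706) and MAPK7, which encodes ERK5, in all but zizyphus (-0.19, 0.0745). These 5 genes were named after their values were seen. With the library size as scaling, 2 to 4 of the corepressors and coactivators were lower and 0 to 4 higher, and 1 to 3 of the ERK5 and MEF2 genes lower and 0 to 1 higher. CREBBP was then still called in all 6 extracts, EP300 in all but zizyphus (edgeR adjusted p = 0.0984), MEF2A in yijin, schisandra and zizyphus, and SIN3A in yijin and schisandra and MAPK7 in yijin and soshiho; each kept the lower sign. As for the members, these comparisons share the 3 vehicle libraries and their high mitochondrial share.

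The TGF-beta list (10 genes, all tested) held 0 genes higher and 2 lower in yijin, 0 higher and 3 lower in soshiho and 1 higher and 1 lower in schisandra by edgeR, with medians of -0.035, -0.11 and 0.006 on the log2 scale. Of all tested genes 7.79%, 5.08% and 7.33% were called there in either direction. SMAD7, the inhibitory SMAD, fell in yijin (25.0 to 19.9 CPM, log2 -0.34, edgeR adjusted p = 0.000195) and soshiho (26.4 to 18.0 CPM, log2 -0.55, edgeR adjusted p = 1.36e-06). SKIL, a SMAD corepressor, fell in all 3, by -0.26, -0.59 and -0.27 on the log2 scale (edgeR adjusted p = 0.0402, 0.000104 and 0.0338). The remaining called genes, SKI (lower in soshiho) and TGFB1 (higher in schisandra), were named after their values were seen.

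Of the 14 tested genes of the glucocorticoid and circadian list, 1 was higher and 5 lower in yijin, 0 and 4 in soshiho and 0 and 2 in schisandra (medians -0.09, -0.16 and -0.06). The share of all tested genes called in these extracts was 7.79%, 5.08% and 7.33%. SGK1, a glucocorticoid-induced kinase, fell from 62.0 ± 1.88 to 38.4 ± 1.3 CPM in soshiho (SD, n = 2, log2 -0.70, edgeR adjusted p = 1.41e-08) and in schisandra (72.6 to 57.4 CPM, log2 -0.34, edgeR adjusted p = 0.000238). HLF, a clock output factor, fell in soshiho (log2 -0.29, edgeR adjusted p = 3.45e-06). FKBP5, another glucocorticoid target, rose in yijin (log2 0.18, edgeR adjusted p = 0.000324). In soshiho FKBP5 stood at a log2 change of -0.007 (SE 0.042, edgeR adjusted p = 0.972) and TSC22D3, a further glucocorticoid target, at -0.075 (SE 0.443, 0.971), neither past the test. The SE of TSC22D3 was too wide to show a moderate change. NR3C1, the glucocorticoid receptor gene, was lower in yijin (log2 -0.23, edgeR adjusted p = 0.0287) and schisandra (-0.30, 0.00292) and not called in soshiho (-0.11, 0.644). TSC22D3 and NR3C1 were named after their values were seen.

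The 24 tested genes known as KLF targets held 2 higher and 6 lower in yijin, 3 higher and 4 lower in soshiho and 5 higher and 5 lower in schisandra, with medians of -0.01, 0.08 and -0.08 on the log2 scale. Of all tested genes 7.79%, 5.08% and 7.33% were called there in either direction. In liriope, longan and zizyphus 0 of the target genes were called by edgeR and 0 by DESeq2, and 4, 0 and 5 had an unadjusted edgeR p under 0.05. EdgeR called 0.0295%, 0.0177% and 0.0355% of all genes in those extracts. CDKN1A, the cell-cycle inhibitor p21 and a target of KLF4 and KLF6, rose in soshiho from 73.2 ± 2.48 to 106 ± 0.195 CPM (SD, n = 2, log2 0.53, edgeR adjusted p = 1.8e-06). SREBF1, the lipogenic factor, fell in yijin and soshiho (log2 -0.35 and -0.43, edgeR adjusted p = 3.31e-05 and 3.23e-05). SMAD7, on this list too, fell as given for the TGF-beta list. Beside these counts, of 8 hepatocyte markers 0 were higher and 2 lower in yijin, 0 and 0 in soshiho and 1 and 1 in schisandra. Of the 3 tested fibroblast and stellate markers, ACTA2 was lower in yijin (log2 -0.50, edgeR adjusted p = 7.71e-09) and schisandra (-0.27, 0.000972) and COL1A1 in soshiho (-1.22, 0.0441). Of the 2 tested leukocyte markers, CD68 was higher in schisandra (0.52, 0.000232). The part of these markers in the results was not tested.

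In the single libraries of aucklandia and polygala, genes of the same lists were picked after their values were seen. Aucklandia held MEF2D, a partner of ERK5, at 15.5, 14.2 and 60.9 CPM over the 3 doses. There 4 of the 6 tested ERK5 and MEF2 genes were at least 1.5-fold higher on log2(CPM + 1) at the high dose, beside 18.5% of all tested genes. CDKN1A stood at 90.5, 129 and 368 CPM and SMURF2, a ligase of the TGF-beta pathway, at 27.4, 28.0 and 119 CPM. SP5, a Wnt-induced family member, was 246, 241 and 64.7 CPM. In polygala 6 of 10 TGF-beta genes and 6 of 11 ligase genes were higher by that measure and none lower, while 1 of 24 KLF targets was higher and 11 were lower, with the keratin gene KRT8 at 1040, 791 and 254 CPM. Of all tested genes 14.4% were higher and 16.7% lower by that measure in polygala. KLF16, a repressor of the family, stood at 42.5, 48.7 and 90.6 CPM there.

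Over the mean log2(CPM + 1) of the 19 replicated groups, the genes whose pattern was most like each called member were sought among 10732 genes with a mean of at least 5 CPM. For KLF6 they were LRRC1 (Pearson r = 0.91), ABLIM3 (0.90) and BMP4 (0.89). For KLF5 they were TPM4 (0.87), ESAM (0.86) and TOP1MT (0.85), and for KLF9 HNRNPK (0.83), ACSL3 (0.81) and HACD2 (0.80). Between members r was 0.79 for KLF5 with KLF6 and -0.65 for KLF6 with KLF9. All these values describe groups whose genes share libraries and depth, and carry no test.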

How the data were processed

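RNA of HepG2 cells under vehicle and 8 herbal extracts was measured in 60 libraries. The deposited table holds expected counts per Ensembl gene, which the authors made with FastQC 0.11.9, Trim Galore 0.6.5, STAR 2.7.3a and RSEM 1.3.3 on hg38, per the submitters' processing notes; the role and settings of each tool and the annotation release are not given in the sources used here. The expected counts were rounded to whole numbers (10.4% of the values had a fraction). Symbols matched 56558 of 60675 identifiers; positions and exon lengths come from GENCODE 29 and promoter windows from RefSeq.

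Levels are CPM with TMM factors over all 60 libraries, which held 20.7 to 38.0 M counts. The test was edgeR's quasi-likelihood test (edgeR 4.0.16, R 4.3.3) with 1 mean per group over 54 libraries in 19 groups, after edgeR's filter on low counts, with Benjamini-Hochberg adjustment over all 16924 genes and a threshold of 0.05. Intervals are 1.96 SE. Polygala and aucklandia, with 1 library per dose, were left out of the fit and are given as CPM with exact 95% Poisson intervals, with a 1.5-fold change on log2(CPM + 1) as the mark. The fit was tested on simulated data. Alternatives were DESeq2 1.42.0, other scalings, no filter, a replicate block, fewer libraries in the fit and another pseudocount. No 2 replicate libraries agreed within sampling noise: over 51 pairs, chi-square per degree of freedom was 2.70 to 65.1.

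All 9 members are named. No upstream window of KLF10 is reported, although KLF10 also stood high in the high-dose aucklandia library (69.2 CPM). Of each other list, up to 3 called genes are named, those with the smallest high vs low p, and any called KLF or SP gene. For each called member, the 3 genes most like it are named. 1 gene of the TGF-beta list is not reported here and is left out of that list's counts. The members and lists were chosen with earlier results of these data known.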

Additional observations from a re-analysis of the deposited data

Results flagged for a closer look

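The change of KLF9 from the low to the high dose differed between soshiho and yijin by -0.47 on the log2 scale in a test of the difference itself (edgeR adjusted p = 0.026). The call was lost without any 1 of 6 of the 10 libraries it rests on (adjusted p up to 0.286). KLF9 went from 23.4 and 20.9 CPM to 14.6 and 14.7 CPM in soshiho and from 21.4, 21.9 and 21.8 CPM to 18.5, 19.8 and 21.4 CPM in yijin.

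The change of KLF6 differed between schisandra and liriope by 0.27 on the log2 scale, also tested directly (edgeR adjusted p = 0.0123). It was lost without liriope high replicate 2 (0.0654), without that library and schisandra low replicate 1 (0.0651) and without a filter on low counts (0.102). KLF6 rose from 74.3, 74.5 and 67.5 CPM to 80.8, 82.3 and 80.9 CPM in schisandra, and stood at 68.3, 71.6 and 69.9 CPM and then 62.0, 61.4 and 73.6 CPM in liriope. Both differences were among 5 pairs of extracts compared.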

How the results depend on the processing

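Of 1568 values of single members under other settings, 1509 kept their direction and their side of the threshold, 39 lost a call, 20 gained one and 0 called values reversed; 52 uncalled values changed sign. Without 1 library, 1497 of 1552 values stayed, 46 lost and 9 gained a call, and 0 called values reversed. Most values in both sets were not called in the main fit. The shares that stayed therefore do not measure how firm the calls were, and all lost calls fall on the minority of values that were called. Where a count of calls moved by over 1.5 times, the cause was not tested.

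With the library size alone as scaling, the count of members called was 1 of 8 for low dose against vehicle in yijin, liriope and longan, 0 in soshiho and zizyphus, 1 for schisandra high vs low, 0 for the high dose against vehicle in schisandra, longan and zizyphus, and 2 for soshiho minus yijin. The share of all called genes that were higher rose with this scaling from 47.7% to 79.9% in yijin against vehicle, 48.8% to 77.4% in soshiho, 49.1% to 79.7% in schisandra, 51% to 84.9% in liriope, 49.1% to 88.4% in longan and 48.3% to 88% in zizyphus; between high and low dose it fell from 48.6% to 35.9% in yijin, 55.3% to 44.1% in soshiho, 53.5% to 29.1% in schisandra and 60% to 28.6% of a few genes in liriope.

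Relative log expression factors gave 2 members for longan high vs vehicle. DESeq2 gave 1 for soshiho low vs vehicle, 2 for longan high vs vehicle, and 14, 6 and 13 genes between high and low dose in liriope, longan and zizyphus (5, 3 and 6 by edgeR). Without a filter on low counts these were 207, 63 and 79 genes; the members called were 1 in yijin and 0 in schisandra between high and low dose, 1, 1 and 0 in soshiho, longan and zizyphus between low dose and vehicle, 0 in longan and zizyphus between high dose and vehicle, and 0 for schisandra minus liriope.

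Fitting only an extract and vehicle gave 360 genes and 0 members for schisandra high vs low, 2330 genes and 0 members for schisandra high vs vehicle, 1 and 2 genes for liriope and zizyphus high vs low, 1566 genes for liriope high vs vehicle, 1 member for low dose against vehicle in soshiho and liriope and 0 in zizyphus, and 3 and 0 members for longan and zizyphus high vs vehicle. Without schisandra low replicate 1 and liriope high replicate 2 there were 731 genes and 1 member for schisandra high vs low, 15 genes for zizyphus high vs low, 3 members for longan high vs vehicle, 2 for soshiho minus yijin, 1 for soshiho minus schisandra and 0 for schisandra minus liriope.

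Whether the replicate numbers pair the libraries is not settled by these data. Same-numbered deviations of the high and low dose correlated at -0.60 to 0.64, for example at 0.33, 0.05 and 0.24 in longan and 0.20, -0.60 and -0.21 in zizyphus. The main fit used no pairing. With the replicate block, 8 genes were called for liriope high vs low, and 2 members for longan high vs vehicle and for soshiho minus yijin.

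Leaving out 1 library at a time, the members called were 1 to 2 for liriope low vs vehicle, 0 to 2 for longan high vs vehicle, 1 to 2 for longan low vs vehicle, 0 to 2 for schisandra high vs low, 0 to 1 for schisandra high vs vehicle, 1 to 3 for schisandra low vs vehicle, 0 to 1 for schisandra minus liriope, 1 to 2 for soshiho low vs vehicle, 0 to 1 for soshiho minus schisandra, 0 to 1 for soshiho minus yijin, 1 to 2 for yijin high vs low, 1 to 2 for yijin low vs vehicle, 0 to 1 for zizyphus high vs vehicle, 0 to 3 for zizyphus low vs vehicle. The genes called were 2 to 6 for liriope high vs low, 0 to 2 for longan high vs low, 2048 to 2992 for longan high vs vehicle, 615 to 1825 for schisandra high vs low, 454 to 496 for soshiho high vs low, 2018 to 3238 for soshiho high vs vehicle, 836 to 1030 for yijin high vs low, 3 to 7 for zizyphus high vs low, 1867 to 2687 for zizyphus high vs vehicle. KLF2 and KLF4, at means of 7.5 and 14.7 counts per library, limit what depth can show for them, and single libraries of polygala and aucklandia have no replicate check.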
